A study of Drosophila melanogaster with 80 samples.

Results

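The genes of the proteasome were taken as every row of the deposited count matrix whose FlyBase symbol is Rpn, Rpt, Prosalpha or Prosbeta followed by a digit, which gave 48 of 17697 gene identifiers. Of these, 32 were standard subunits: 7 of the alpha ring, 7 of the beta ring, 6 ATPases of the base, 4 other subunits of the base and 8 subunits of the lid. The other 16 carry a T or an R at the end of the symbol and were kept apart as paralogues. They were Prosalpha1R, Prosalpha3T, Prosalpha4T1, Prosalpha4T2, Prosalpha6T, Prosbeta2R1, Prosbeta2R2, Prosbeta4R1, Prosbeta4R2, Prosbeta5R1, Prosbeta5R2, Rpn12R, Rpn13R, Rpt3R, Rpt4R and Rpt6R.

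The proteasome is the large protease that degrades proteins tagged with ubiquitin. In its core particle, rings of alpha subunits form the gate and rings of beta subunits form the chamber, in which Prosbeta1, Prosbeta2 and Prosbeta5 carry the caspase-like, trypsin-like and chymotrypsin-like active sites. In the regulatory particle, the Rpt ATPases of the base unfold the substrate, Rpn10 and Rpn13 bind ubiquitin, and the deubiquitinase Rpn11 of the lid removes the ubiquitin chain. In Drosophila, many alpha, beta and regulatory subunits have an additional copy that is expressed in the male germ line.

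RNA from whole Drosophila melanogaster was sequenced after oligo(dT) enrichment. Fluctuating animals went through temperature cycles of 19 ± 8 °C and were taken at the high point of 27 °C or at the low point of 11 °C, and constant animals stayed at 19 °C and were taken alongside them. The larval treatment lasted 7 days, with sampling after 6 cycles. The adult treatment lasted 13 days, with sampling of males and of females after 12 and after 6 cycles. The 20 groups held 4 libraries each, which the study's design calls biological replicates; strain, genotype, the number of animals behind a library and the sex of the larvae are not given in the labels. Adult replicates carry the numbers 5 to 8 at 12 cycles and 1 to 4 at 6 cycles, so the number of cycles, age and the occasion of sampling cannot be told apart. Values below are counts per 1000000 counts of the library (CPM), and comparisons are log2 fold changes with their standard error (SE) from the quasi-likelihood test of edgeR, with p-values adjusted by Benjamini-Hochberg over all genes tested. A gene is said to have risen or fallen where its adjusted p was below 0.05.

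Library totals lay between 87.11 M and 130.7 M counts. Summed ovary and maternal markers reached 97.27 ± 39.5 CPM in males (SD, n = 31) and 22520 ± 7967 CPM in females (n = 32). Summed testis markers stood at 244.7 ± 122.8 CPM in larvae (n = 16), 4031 ± 500.5 CPM in males and 8.483 ± 1.995 CPM in females. The library labelled male, constant, low point, 6 cycles, replicate 2 went against its label and was left out: its ovary markers summed to 18850 CPM, against 60.49 to 127.2 CPM in the 15 other constant males, and its standard subunits to 4493 CPM, against 3514 to 4050 CPM. It also carried male markers, with testis markers summing to 2853 CPM, against 3033 to 4650 CPM in those males, and accessory gland markers to 1206 CPM; whether it is a mixture of sexes was not tested. The remaining 79 libraries entered all comparisons. Of the 32 standard subunits, 16 overlap another annotated gene, and 6 of the 16 paralogues do; since the counting is not stated to use strand, reads of such pairs cannot be told apart.

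All 32 standard subunits were expressed in every stage and sex, and males had the lowest levels. Larval libraries summed to 6353 to 10870 CPM over these genes, with a mean of 8502 ± 1197 CPM (SD, n = 16). In males the sum was 3663 ± 148.8 CPM (n = 31) and in females 7088 ± 291.3 CPM (n = 32), and the ranges of the sexes, 3478 to 4204 CPM in males and 6580 to 7634 CPM in females, did not overlap. In whole animals, fewer cells of a type and less RNA per cell cannot be told apart.

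**Figure D1:**
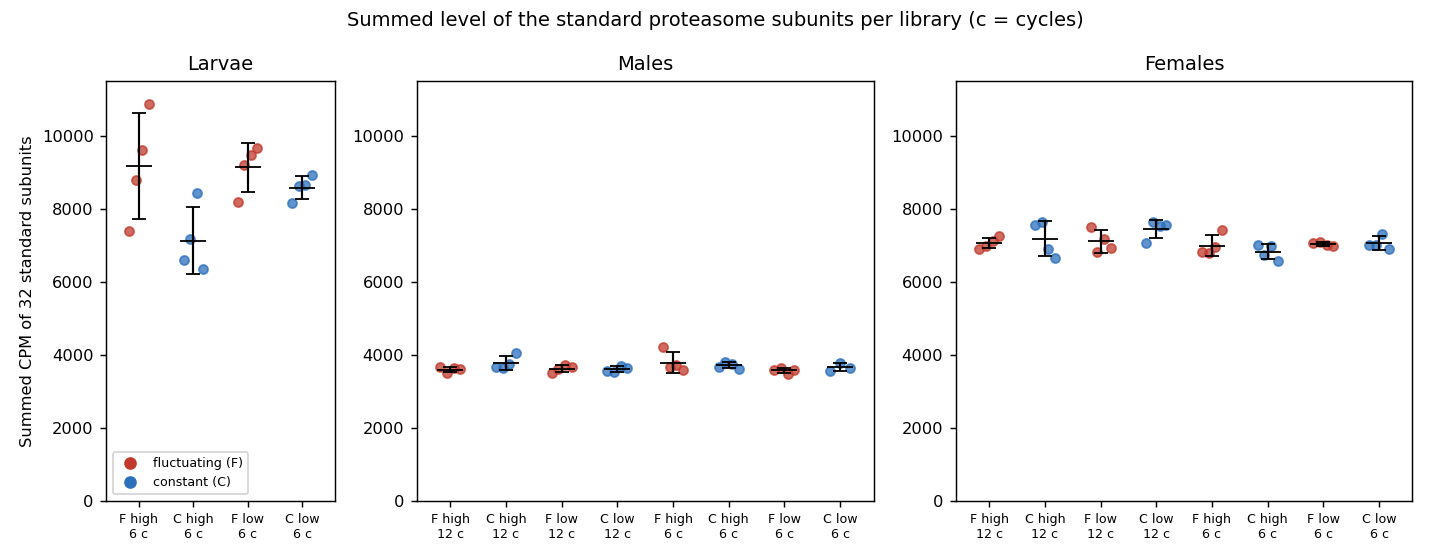
Summed CPM of the 32 standard subunits in each of the 79 libraries, before scaling between libraries, by regime, point and number of cycles; each point is a library. Male libraries sit between 3478 and 4204 CPM, female libraries between 6580 and 7634 CPM, and larval libraries spread from 6353 to 10870 CPM.

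Per kilobase of exon, the standard subunits lay within a narrow band. In larvae, levels went from 119.0 CPM per kb for Prosalpha1 up to 320.1 CPM per kb for Prosalpha2, a ratio of 2.69. In males they went from 45.54 CPM per kb for Rpn1, a scaffold subunit of the base, to 166.4 CPM per kb for Prosbeta7, a ratio of 3.654. In females Rpn1 was again the lowest, at 102.9 CPM per kb, and Prosbeta4 the highest, at 264.2 CPM per kb, a ratio of 2.568. By these medians, core subunits stood above regulatory subunits in males and females. The median level of alpha ring genes was 235.7 CPM per kb in larvae, 117.8 in males and 227.7 in females, and that of beta ring genes was 212.1 CPM per kb in larvae, 108.4 in males and 207.9 in females. Lid genes had medians of 170.1 CPM per kb in larvae, 63.28 in males and 142.2 in females. The ATPases of the base stood near the beta ring in larvae, at a median of 215.3 CPM per kb, and lower in the adults, at 68.91 in males and 140.9 in females. The spread between libraries of a group was wider in larvae: the median coefficient of variation of a standard subunit was 10.6% in larvae, 4.54% in males and 4.13% in females.

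In larvae taken at the high point, every standard subunit had a positive fold change in fluctuating over constant animals, and the lid subunits Rpn8, Rpn3 and Rpn5 passed the test. The median over the 32 genes was 0.29 on the log2 scale, with a range of 0.073 to 0.47, beside a median of 0.031 over all genes tested. In all, 3 of the 32 rose and 0 fell, beside 2.1% of 14634 genes higher and 2.26% lower. An unadjusted p below 0.05 was reached by 18 of the 32, beside 3212 of the 14634 genes. The subunits varied together between larval libraries. Within groups their sum had a mean coefficient of variation of 9.98%, beside a median of 10.6% for a single subunit. The 32 genes are thus not 32 independent observations, here or in the larval comparisons below. Their sum after scaling overlapped between the groups, at 7784 to 11460 CPM in fluctuating and 6940 to 8649 CPM in constant larvae. Rpn8, a partner of the deubiquitinase Rpn11 in the lid, lies on arm 2R at 24400028 to 24404527 (BDGP6.54) and overlaps Slik. It stood at 259.3, 285.6, 304.7 and 365.7 CPM in the 4 fluctuating libraries, against 211.1, 217.1, 229.9 and 256.8 CPM in the 4 constant libraries. All fluctuating libraries were above all constant ones, and the fold change was 0.41 (SE 0.0943, adjusted p = 0.0294). Rpn3, a scaffold subunit of the lid on arm 2L at 19051790 to 19053681, stood at 221.5, 241.2, 265.4 and 320.0 CPM in fluctuating larvae, against 173.2, 177.8, 183.7 and 221.3 CPM in constant larvae. These groups did not overlap either, and the fold change was 0.47 (SE 0.11, adjusted p = 0.0307). Rpn5, another scaffold of the lid on 3R at 5789493 to 5791569, stood at 313.2, 344.3, 381.1 and 437.8 CPM in fluctuating larvae, against 265.4, 267.4, 272.4 and 330.4 CPM in constant larvae. The highest constant library lay above the lowest fluctuating library, and the fold change was 0.38 (SE 0.101, adjusted p = 0.0473). Besides Rpn8 and Rpn3, the ubiquitin receptor Rpn13 was the other subunit whose fluctuating libraries all lay above the constant ones. Groups without overlap were counted for the standard subunits alone, here and in the adults below. How common such separation is among all genes was not tested.

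The sizes differed between parts of the particle, which is given here as a description without a test. Lid genes had a median fold change of 0.41 and were the class with members that passed the test, 3 of 8. The base ATPases had a median of 0.32 and the other base subunits 0.31, with 0 of 6 and 0 of 4 called, and the alpha and beta rings had medians of 0.21 and 0.18, with 0 of 7 called in each. Rpn11 narrowly missed the threshold: it stood at 202.7, 220.2, 235.1 and 319.0 CPM in fluctuating larvae, against 159.8, 163.0, 172.2 and 212.2 CPM in constant larvae, with a fold change of 0.47 (SE 0.127, adjusted p = 0.051). The catalytic genes had smaller values, 0.28 for Prosbeta2 (SE 0.0953, adjusted p = 0.102), 0.25 for Prosbeta1 (SE 0.116, adjusted p = 0.23) and 0.25 for Prosbeta5 (SE 0.129, adjusted p = 0.272).

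Of 21 partner genes, a list of ubiquitin-pathway enzymes, shuttles, assembly factors and regulators of the proteasome, 3 rose and 0 fell in the same comparison. They were the ubiquitin ligase Ube3a (0.35, SE 0.0731, adjusted p = 0.0215), the proteasome-bound deubiquitinase Usp14 (0.46, SE 0.107, adjusted p = 0.0315) and the ubiquitin shuttle Rad23 (0.36, SE 0.0967, adjusted p = 0.0494). The median of the list was 0.24.

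The number of calls at the larval high point depended on single libraries. The 3 calls became 0 without constant high-point replicate 1, 2 or 4 or without fluctuating high-point replicate 2 or 4, became 12 without constant high-point replicate 3, 13 without fluctuating high-point replicate 1, and 6 without fluctuating low-point replicate 1. The median fold change stayed positive, between 0.15 and 0.35. DESeq2 called 14 of the 32, all higher, including the 3 named, and edgeR fitted to just these 8 libraries called 0. Shares of all genes called under these settings are not given here, so these counts have no background beside them. Larval markers moved in the opposite direction: their sum was 99580 ± 16240 CPM in fluctuating and 122100 ± 13080 CPM in constant larvae at the high point (SD, n = 4 each), with ranges of 84840 to 118600 and 104700 to 133300 CPM. The part of larval tissue makeup in the change of the subunits was not tested.

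**Figure D2:**
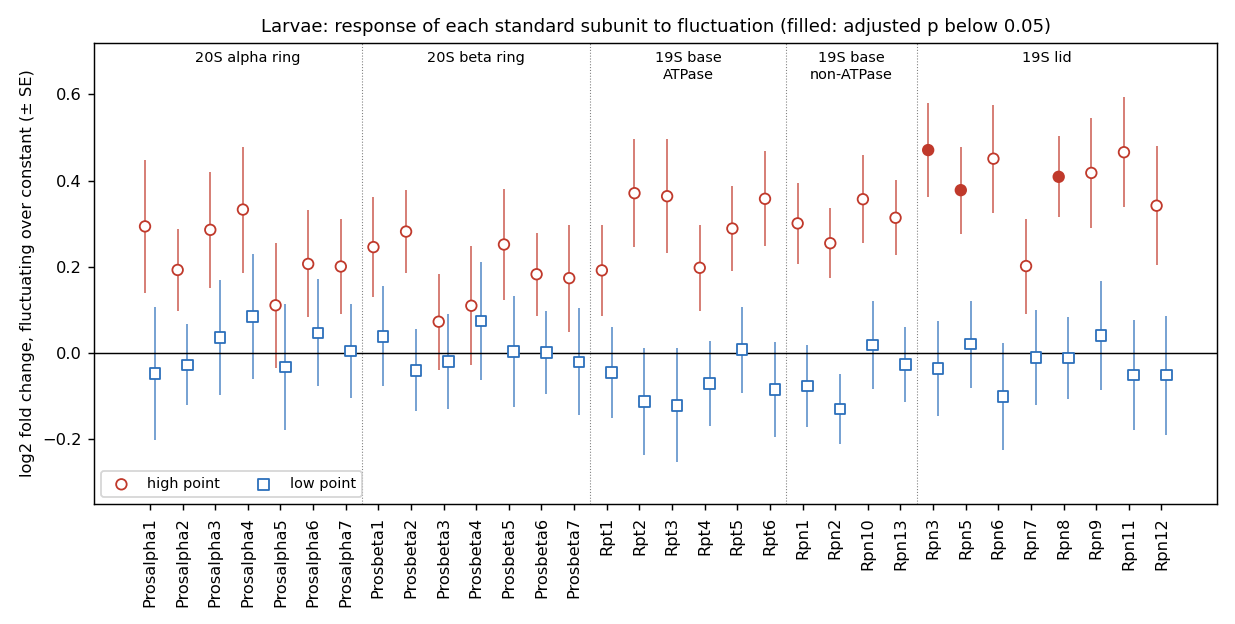
Log2 fold change of each standard subunit, fluctuating over constant larvae, for each sampling point; bars are the SE and filled symbols have an adjusted p below 0.05. All 32 high-point values lie above 0, with Rpn8, Rpn3 and Rpn5 filled, and the low-point values scatter from -0.13 to 0.085.

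At the low point, 0 of the 32 standard subunits passed edgeR's test in larvae, beside 0.437% of all genes higher and 0.67% lower, and DESeq2 called 0. An unadjusted p below 0.05 was reached by 0 of the 32, beside 1834 of 14634 genes. The median fold change was -0.023. The smallest adjusted p belonged to Rpn2, a scaffold of the base, with -0.13 (SE 0.0808, adjusted p = 0.553), and the ATPases Rpt3 and Rpt2 followed with adjusted p-values of 0.721 and 0.727. Rpn11 and the catalytic genes lay between -0.051 and 0.039. Within constant larvae, high-point minus low-point values were negative for all 32 genes, with a median of -0.20. Of these, 0 passed edgeR's test, beside 0.349% of all genes higher and 0.0683% lower, and DESeq2 called 0. An unadjusted p below 0.05 was reached by 3 of the 32, a smaller share than the 3054 of 14634 genes. Rpn3 had the smallest adjusted p, with -0.28 (SE 0.11, adjusted p = 0.167).

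The difference between the larval effects at the high and the low point was itself tested. It was positive for all 32 genes, with a median of 0.30, but 0 passed edgeR's test, beside 0.895% of all genes higher and 0.793% lower. DESeq2 called 3. An unadjusted p below 0.05 was reached by 13 of the 32, beside 2722 of 14634 genes. Rpn2 came closest, with 0.39 (SE 0.114, adjusted p = 0.0922). Without constant high-point replicate 3 the test called 3 genes, and without fluctuating high-point replicate 1 it called 2. A larger effect at the high point was thus not shown by this test for any single subunit. The effects at the high and the low point share no library. The constant larvae of the high point, at 6353, 6584, 7164 and 8420 CPM summed over the subunits, lay lower than those of the low point, at 8146, 8617, 8643 and 8923 CPM, except for the highest. Fluctuating larvae summed to like levels before scaling, 9164 ± 1457 CPM at the high point and 9132 ± 666.3 CPM at the low point (SD, n = 4 each). After scaling these sums were 9214 ± 1590 and 8493 ± 480 CPM, beside 7543 ± 763 and 8657 ± 281 CPM in constant larvae. The constant high-point group thus had the lowest mean by either measure.

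The larval high-point effect was larger than the mean effect of both adult sexes for most standard subunits. In this test of the difference, 25 of 32 were higher and 0 lower, beside 11% of 16386 genes higher and 6.58% lower, with a median difference of 0.34 and of 0.070 over all genes. The fit to all libraries uses a single spread per gene for all stages. Within groups, however, standard subunits varied by a median of 10.6% in larvae, 4.54% in males and 4.13% in females. The larval spread is thus understated in this fit, and its calls and adjusted p-values are probably too favourable. The fit to larvae called 3 of the 32 at the high point. Among the smallest adjusted p-values were those of the ATPase Rpt3 (0.57, SE 0.089, adjusted p = 3.41e-06), Rpn13 (0.56, SE 0.076, adjusted p = 1.73e-07) and Rpn8 (0.47, SE 0.073, adjusted p = 3.19e-06). All 8 lid genes, all 6 ATPases and all 4 other base genes were called, against 4 of 7 alpha and 3 of 7 beta ring genes. Rpn11 was among them (0.43, SE 0.0833, adjusted p = 0.000133), as were Prosbeta2 (0.30, SE 0.0785, adjusted p = 0.00414) and Prosbeta1 (0.22, SE 0.0805, adjusted p = 0.0482), but not Prosbeta5 (0.096, SE 0.0874, adjusted p = 0.538). Among partner genes 9 were higher and 0 lower, led by Ube3a (0.43, SE 0.0727, adjusted p = 1.39e-05). The count was 14 without the libraries numbered 4. The low-point difference was called for 1 gene, Rpn13 with 0.23 (SE 0.0762, adjusted p = 0.0338), and 0 lower, beside 7.74% higher and 4.67% lower; the count was 0 without the libraries numbered 2, 3, 4, 7 or 8.

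In males at the high point, subunits moved in both directions: the catalytic subunit Prosbeta5 rose, and the ubiquitin receptor Rpn13, the lid subunit Rpn7 and the base scaffold Rpn2 fell. In all, 3 of 32 standard subunits rose and 10 fell, beside 18.2% of 15945 genes higher and 19.7% lower, so the share that rose was below and the share that fell above those of all genes. The median was -0.017. Prosbeta5 lies on 2R at 10819978 to 10821178 and overlaps Lsm10. It had a lowest, median and highest value of 102.9, 114.9 and 124.1 CPM in fluctuating males (n = 8), against 84.62, 92.53 and 102.7 CPM in constant males (n = 8). The groups did not overlap, and the fold change was 0.28 (SE 0.0487, adjusted p = 5.31e-05). Rpn13, on 2R at 13958545 to 13960404, had a lowest, median and highest value of 126.4, 130.9 and 147.3 CPM in fluctuating males, against 147, 170.9 and 211.2 CPM in constant males. The highest fluctuating library and the lowest constant library nearly coincided, and the fold change was -0.41 (SE 0.0446, adjusted p = 8.56e-08). Rpn7 had 79.67, 84.44 and 87.03 CPM in fluctuating males, against 95.28, 106.9 and 124.7 CPM in constant males, without overlap (-0.36, SE 0.0395, adjusted p = 8.66e-08). Rpn2 had 166.6, 182.2 and 190.1 CPM in fluctuating males, against 198.5, 216.4 and 241.9 CPM in constant males, again without overlap (-0.26, SE 0.0344, adjusted p = 1.3e-06).

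Of the other calls in males at the high point, Rpn3 (0.17, SE 0.0387, adjusted p = 0.00084) and Prosalpha4 (0.17, SE 0.0581, adjusted p = 0.023) rose. Rpt3, Prosalpha2, Prosalpha5, Rpn1, Rpt4, Prosalpha6 and Rpt5 fell, with values from -0.27 for Rpt3 to -0.081 for Rpt5. By part of the particle, 3 of the 4 non-ATPase base genes and 3 of the 6 ATPases fell, and 3 of the 7 alpha ring genes fell and 1 rose. The other catalytic genes and Rpn11 did not pass: Prosbeta1 had 0.083 (SE 0.0429, adjusted p = 0.131), Prosbeta2 0.046 (SE 0.0551, adjusted p = 0.553) and Rpn11 0.085 (SE 0.043, adjusted p = 0.124). Of 21 partner genes, 9 rose and 7 fell. The regulators maf-S, a small Maf protein that pairs with the transcription factor Cnc (0.59, SE 0.0728, adjusted p = 5.33e-07), Rad23 (0.30, SE 0.0357, adjusted p = 2.38e-07) and REG, an alternative cap of the core particle (0.27, SE 0.0354, adjusted p = 9.26e-07), were among those that rose. The TER94 cofactor p47 (-0.26, SE 0.0381, adjusted p = 6.47e-06) was among those that fell, and so was Ube3a (-0.25, SE 0.0411, adjusted p = 2.08e-05), which had risen in larvae. Some marker sums also differed between the regimes, while testis markers hardly did. Larval markers summed to 1388 ± 713 CPM in fluctuating and 368.6 ± 337.5 CPM in constant males at the high point (SD, n = 8 each). The dosage compensation genes roX1, roX2 and msl-2 summed to 409.7 ± 55.64 CPM in fluctuating and 320.2 ± 51.56 CPM in constant males, accessory gland markers to 1802 ± 543.7 CPM in fluctuating and 1447 ± 404.5 CPM in constant males, and testis markers to 4053 ± 547.5 CPM in fluctuating and 4119 ± 417.5 CPM in constant males. In adults the larval sum stood near the level of a single gene, Lsp2. Lsp2 had a median of 699.3 CPM in males, where the sum had 820.2 CPM, and of 363.8 CPM in females, where the sum had 422.1 CPM. Sgs3 had a median of 0 CPM in both sexes. The larval sum in adults, here and below, thus need not mark larval tissue. The part of the tissues that express these markers in the changes of the subunits was not tested.

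Males at the low point had mixed calls too: 2 standard subunits rose and 6 fell, beside 12.3% of all genes higher and 15% lower. Prosbeta5 again rose, with 100.8, 110.8 and 136.2 CPM (lowest, median, highest) in fluctuating males (n = 8), against 79.96, 107.5 and 118.4 CPM in constant males (n = 7). These groups overlapped widely, since 12-cycle constant libraries lay as high as the fluctuating ones, and the fold change was 0.25 (SE 0.0508, adjusted p = 0.000625). Prosalpha3 rose as well (0.17, SE 0.0543, adjusted p = 0.021). Rpn13 fell (-0.24, SE 0.0463, adjusted p = 0.000343), as did Rpn7 (-0.20, SE 0.041, adjusted p = 0.000725), Rpn1 (-0.19, SE 0.0446, adjusted p = 0.00246), Rpt3, Rpt6 and Rpn6; at 12 cycles alone Rpn13 had 0.046 and Rpt3 0.039. Prosbeta1 (0.11, adjusted p = 0.0595), Prosbeta2 (0.047, adjusted p = 0.594) and Rpn11 (0.11, adjusted p = 0.0656) did not pass. The fluctuating libraries of Prosbeta1 nevertheless all lay above the constant ones. Of the partner genes 4 rose and 3 fell, led by Keap1, the inhibitor of Cnc (0.45, SE 0.0827, adjusted p = 0.000168), and the shuttle Ubqn (-0.25, SE 0.0482, adjusted p = 0.000349). The count of 8 subunits became 13 without constant high-point 12-cycle replicate 8 and 13 without fluctuating high-point 6-cycle replicate 1, and 0 of the 8 were called at 12 cycles alone. Accessory gland markers summed to 2180 ± 557.2 CPM in fluctuating (SD, n = 8) and 1536 ± 277 CPM in constant males (n = 7), and dosage compensation genes to 463.4 ± 50.7 CPM in fluctuating and 364.4 ± 49.33 CPM in constant males. Larval markers summed to 983.5 ± 442.2 CPM in fluctuating and 541.2 ± 529.7 CPM in constant males, and testis markers to 4071 ± 603.7 CPM in fluctuating and 3858 ± 475.8 CPM in constant males. Their part in the low-point changes was not tested either.

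Between the points in constant males, 3 standard subunits were higher at the high point and 0 lower, beside 3.31% and 4.16% of all genes. They were Rpn13 (0.22, SE 0.0464, adjusted p = 0.0032), Prosalpha2 (0.18, SE 0.0461, adjusted p = 0.0126) and Rpn7 (0.17, SE 0.0411, adjusted p = 0.011), but at 6 cycles alone Rpn13 had -0.15 and Rpn7 -0.054. The male effect at the high point minus that at the low point was lower for 3 and higher for 0 subunits, beside 10.8% of all genes lower and 12.7% higher. These were Prosalpha5 (-0.23, SE 0.0665, adjusted p = 0.0104), Rpn2 (-0.19, SE 0.0496, adjusted p = 0.00563) and Rpn7 (-0.17, SE 0.057, adjusted p = 0.0346), and without fluctuating high-point 6-cycle replicate 1 the count was 6. At 6 cycles alone Rpn2 had 0.021 and Rpn7 0.067. Prosbeta5 had a difference of 0.034 (SE 0.0702, adjusted p = 0.801).

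In females at the high point, Rpn3, Prosbeta5 and Rpn5 rose, and the alpha ring genes Prosalpha5, Prosalpha2 and Prosalpha6 fell, as did Prosbeta3. The counts of 3 higher and 4 lower stand beside 15.4% of 13471 genes higher and 15.3% lower, and the median was -0.008. Rpn3 had a lowest, median and highest value of 203.8, 211.7 and 228.9 CPM in fluctuating females (n = 8), against 168.9, 183.5 and 216.5 CPM in constant females (n = 8). Most fluctuating libraries lay above most constant ones, with some overlap, and the fold change was 0.19 (SE 0.029, adjusted p = 1.42e-05). Prosalpha5 had 182.4, 197.5 and 217.7 CPM in fluctuating females, against 198.9, 242.7 and 258.5 CPM in constant females (-0.25, SE 0.0418, adjusted p = 5.18e-05). Prosbeta5 had 218.6, 223.1 and 238.6 CPM in fluctuating females, against 189.2, 209 and 234 CPM in constant females (0.10, SE 0.0278, adjusted p = 0.00718). No subunit had groups without overlap in females at either point. Prosbeta1 (0.037, adjusted p = 0.454), Prosbeta2 (-0.012, adjusted p = 0.785) and Rpn11 (0.062, adjusted p = 0.0897) did not pass. Of the partner genes 7 rose and 1 fell, led by the peptide N-glycanase gene Pngl (0.24, SE 0.0296, adjusted p = 7.44e-07), maf-S (0.34, SE 0.0446, adjusted p = 2.19e-06) and ntc, an F-box gene whose product binds the proteasome regulator PI31 (0.43, SE 0.0778, adjusted p = 0.000113). Summed ovary and maternal markers were 28680 ± 9591 CPM in fluctuating and 19050 ± 2292 CPM in constant females at the high point, and larval markers 422.3 ± 240.8 CPM in fluctuating and 174.5 ± 123.8 CPM in constant females (SD, n = 8 each); their part in these changes was not tested. At 12 cycles alone Prosalpha5 was the 1 call left of the 7.

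In females taken at the low point, 1 standard subunit rose and 11 fell, beside 11.4% of all genes in each direction, so that the share that fell exceeded that of all genes. The gene that rose was Prosbeta5 (0.079, SE 0.0278, adjusted p = 0.0384); at 12 cycles alone its value was -0.066 here and -0.001 at the high point. Those that fell spread over the base (Rpn13, Rpn2, Rpn1 and the ATPases Rpt6, Rpt3, Rpt4 and Rpt1), the lid (Rpn7 and Rpn8) and the alpha ring (Prosalpha2 and Prosalpha5). Prosalpha2 had 202.1, 207.5 and 224.5 CPM (lowest, median, highest) in fluctuating females, against 201.9, 229.7 and 269.6 CPM in constant females, with a fold change of -0.15 (SE 0.0349, adjusted p = 0.00186). Rpt6 had 254.6, 276.8 and 291.6 CPM in fluctuating females, against 284.8, 299.1 and 314.8 CPM in constant females (-0.13, SE 0.0304, adjusted p = 0.00279). Rpn13 had 152.2, 165.5 and 180.7 CPM in fluctuating females, against 148, 177.8 and 242.2 CPM in constant females (-0.18, SE 0.0467, adjusted p = 0.00555). In each of the 3, the fluctuating libraries lay in the lower part of the constant range or below it. Rpn11 (0.036), Prosbeta1 (0.008) and Prosbeta2 (0.009) did not pass. Partner genes were called in both directions, 7 higher and 3 lower; Pomp, the chaperone of core particle assembly, rose (0.15, SE 0.0366, adjusted p = 0.00457), and Ubqn (-0.14, SE 0.0247, adjusted p = 0.000144), p47 (-0.15, SE 0.0302, adjusted p = 0.000685) and the ubiquitin-activating enzyme Uba1 (-0.15, SE 0.0308, adjusted p = 0.00103) fell. At 12 cycles alone Rpn13 had 0.05, Rpn2 -0.005, Rpn7 -0.01, Rpt3 -0.033, Prosalpha2 -0.041 and Rpt6 -0.069, and none of these 6 was called. Larval markers summed to 877.7 ± 557.1 CPM in fluctuating and 383.5 ± 110.2 CPM in constant females at the low point (SD, n = 8 each), and ovary and maternal markers to 23170 ± 9233 CPM in fluctuating and 19170 ± 5315 CPM in constant females; their part was not tested.

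Within constant females, 0 standard subunits were higher and 6 lower at the high point than at the low point, beside 10.9% of all genes higher and 10.3% lower. Rpn8 (-0.16, SE 0.0315, adjusted p = 0.000554) and Rpn2 (-0.15, SE 0.0309, adjusted p = 0.00109) led, followed by Rpn5, Rpt5, Rpt1 and Rpt6. The female effect at the high point minus that at the low point was higher for 6 and lower for 0 subunits, beside 9.78% and 10.2% of all genes. They were Rpt6 (0.17, SE 0.0429, adjusted p = 0.00544), Rpn10 (0.15, SE 0.0451, adjusted p = 0.0204), Rpt1 (0.14, SE 0.0409, adjusted p = 0.013), Rpn5 (0.14, SE 0.0388, adjusted p = 0.0123), Rpn3 (0.13, SE 0.041, adjusted p = 0.0218) and Rpn8 (0.13, SE 0.0445, adjusted p = 0.0383). At 12 cycles alone 0 of the 32 subunits were called for this difference, and at 6 cycles alone 1 was. Partner genes had 7 higher and 0 lower, led by Ubqn (0.21, SE 0.0349, adjusted p = 8.62e-05).

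**Figure D3:**
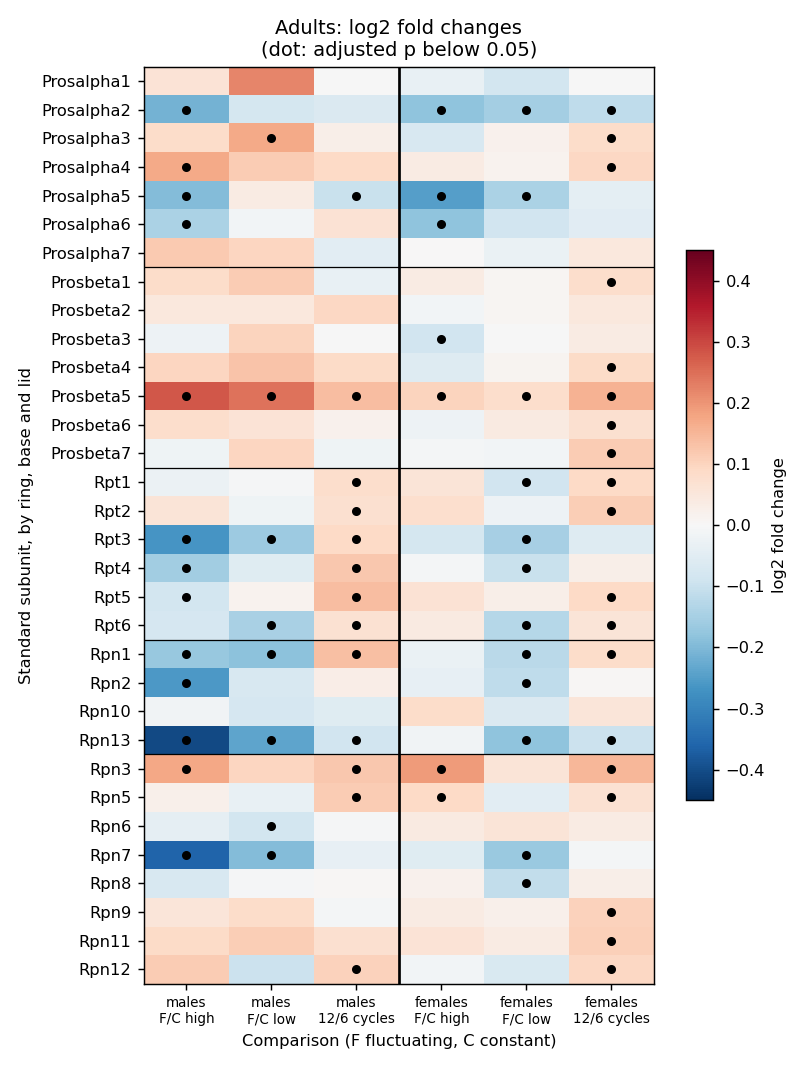
Heat map of log2 fold changes of the 32 standard subunits in adults, ordered by alpha ring, beta ring, base and lid, with a dot where the adjusted p is below 0.05; columns are the fluctuating over constant contrasts at the high and low points and the contrast of 12 over 6 cycles, in each sex. Prosbeta5 is positive in all regime columns (0.28 and 0.25 in males, 0.10 and 0.079 in females, though not at 12 cycles alone in females), and Rpn13 and Rpn7 are negative in both male columns.

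The sexes shared part of their calls. At the high point, Prosbeta5 and Rpn3 rose in both, which is 2 of 3 male and 2 of 3 female calls, and Prosalpha2, Prosalpha5 and Prosalpha6 fell in both, which is 3 of 10 male and 3 of 4 female calls. At the low point, Prosbeta5 rose in both, and Rpn1, Rpn13, Rpn7, Rpt3 and Rpt6 fell in both, 5 of 6 male and 5 of 11 female calls. No subunit was called in opposite directions. Calls shared by the sexes were not counted over all genes. Whether this sharing is particular to the subunits was therefore not tested. The male effect minus the female effect at the high point was higher for 1 and lower for 3 subunits, beside 8.5% and 6.69% of 16152 genes. Prosbeta5 had a difference of 0.21 (SE 0.0553, adjusted p = 0.00577), Rpn13 -0.36 (SE 0.0705, adjusted p = 0.000274), Rpn7 -0.28 (SE 0.0606, adjusted p = 0.00112) and Rpn2 -0.19 (SE 0.0465, adjusted p = 0.00301). Without the libraries numbered 8 the count was 7. At 6 cycles alone 0 of the 4 were called, with 0.12 for Prosbeta5, -0.033 for Rpn13, -0.14 for Rpn7 and -0.04 for Rpn2. At the low point the difference was higher for Prosbeta5 alone (0.19, SE 0.0565, adjusted p = 0.0311) and lower for 0 subunits, beside 2.38% and 4.35% of all genes. That call was lost without the libraries numbered 1, 2, 3, 6, 7 or 8 and at either number of cycles alone.

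The effects of fluctuation on several subunits differed between 12 and 6 cycles, most of all at the low point. For Rpn13 in males at that point, it was the constant animals that moved. In males at the low point, Rpn13 had 123, 136.2, 135.8 and 125.4 CPM after 12 cycles and 127.1, 125, 127.4 and 124.9 CPM after 6 cycles of fluctuation. Constant males stood at 130.7, 118.8, 128.7 and 125.7 CPM at the 12-cycle sampling and at 184.5, 176.4 and 181.5 CPM at the 6-cycle sampling. At the low point, all fluctuating libraries and the 12-cycle constant libraries thus lay in a common band, below the 6-cycle constant libraries. Constant males of the high point stood at 163.1 to 211.2 CPM at 12 cycles and at 147 to 176 CPM at 6 cycles. Among constant males, the low-point 12-cycle group was therefore the one that stood apart. The fold change of fluctuating over constant was 0.05 at 12 cycles and -0.52 at 6 cycles, and the difference was 0.57 (SE 0.0925, adjusted p = 0.00117).

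Rpn13 had an effect that differed in the same direction in females at the low point. It stood at 171.9, 180.7, 164.5 and 172.1 CPM in fluctuating females and at 148, 177.4, 172.4 and 168 CPM in constant females at 12 cycles. At 6 cycles it stood at 164.4, 157.8, 152.2 and 166.6 CPM in fluctuating females and at 178.2, 222, 242.2 and 209.9 CPM in constant females, without overlap. The difference of the effects was 0.46 (SE 0.0934, adjusted p = 0.00121). Constant females of the high point stood at 150.8 to 176.9 CPM at 12 cycles and at 185.7 to 202.6 CPM at 6 cycles. In constant females, unlike constant males, Rpn13 was thus lower at 12 cycles at both points. Prosbeta5 went the other way in females: fluctuating females had 230.5, 221.7, 231.6 and 225.8 CPM and constant females 229.8, 247.8, 233.1 and 241.3 CPM at 12 cycles, and fluctuating females had 217.1, 210.6, 208.4 and 215.7 CPM and constant females 196.4, 174.3, 184.4 and 174.1 CPM at 6 cycles. Prosbeta5 was thus higher at 12 than at 6 cycles in fluctuating and in constant females, without overlap in either. The difference of its effects was -0.29 (SE 0.0555, adjusted p = 0.000793).

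Counted over the subunits, the low-point effect was higher at 12 than at 6 cycles for 5 and lower for 0 in males, beside 2.52% and 1.94% of all genes, and higher for 5 and lower for 5 in females, beside 10.5% in each direction. The male genes were Rpn13, Rpt3 (0.41, SE 0.0852, adjusted p = 0.00846), Rpn2 (0.32, SE 0.0714, adjusted p = 0.0133), Rpn7 (0.35, SE 0.082, adjusted p = 0.0164) and Prosalpha2 (0.35, SE 0.0919, adjusted p = 0.0308), and without fluctuating high-point 6-cycle replicate 1 the count was 8. In females Rpn13, Rpn7, Rpn2, Prosalpha2 and Rpt4 were higher, and Rpn11 (-0.30, SE 0.0549, adjusted p = 0.000554), Prosbeta5, Prosbeta4 (-0.30, SE 0.066, adjusted p = 0.00253), Rpn9 and Rpn3 were lower. At the high point the female difference was higher for Rpn13 (0.34, SE 0.0933, adjusted p = 0.0256) and Prosalpha2 (0.25, SE 0.0698, adjusted p = 0.0261) and lower for Rpn11 (-0.20, SE 0.0549, adjusted p = 0.0239) and Prosbeta5 (-0.20, SE 0.0555, adjusted p = 0.0261), beside 3.64% and 4.95% of all genes. This count of 4 became 2 when constant high-point 12-cycle replicate 5 or 6, fluctuating high-point 6-cycle replicate 4, or fluctuating high-point 12-cycle replicate 5 or 7 was left out. In males at the high point, 0 subunits passed edgeR's test, beside 0.0564% of all genes higher and 0.00627% lower, and DESeq2 called 0. An unadjusted p below 0.05 was reached by 1 subunit, beside 881 of 15945 genes.

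Taken separately, the effect at the high point in males was called for 1 higher and 10 lower subunits at 12 cycles, beside 11.1% and 11.8% of all genes, and for 2 and 6 at 6 cycles, beside 11.2% and 12.5%. Males at the low point had 0 higher and 0 lower at 12 cycles, beside 6.11% and 8.48%, and 1 and 8 at 6 cycles, beside 9.7% and 11.4%. Females at the high point had 0 higher and 1 lower at 12 cycles, beside 6.42% and 5.55%, and 7 and 6 at 6 cycles, beside 15.1% and 15.5%. Females at the low point had 0 higher and 1 lower at 12 cycles, beside 7.46% and 5.92%, and 5 and 8 at 6 cycles, beside 12.8% and 13.7%. A count past the threshold at 6 and not at 12 cycles is no test of a difference; the tests of the difference are those given above.

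Over both regimes and points, standard subunits were more often higher than lower at 12 than at 6 cycles in females. There 17 rose and 2 fell, beside 20.6% of all genes higher and 18% lower, with small fold changes and a median of 0.063. Prosbeta5 led, with a lowest, median and highest value of 213, 230 and 248 CPM at 12 cycles (n = 16), against 174, 207 and 239 CPM at 6 cycles (n = 16), a fold change of 0.16 (SE 0.0196, adjusted p = 4.15e-07). Rpn3 (0.15, SE 0.0205, adjusted p = 2.13e-06), Prosbeta7 (0.11, SE 0.0182, adjusted p = 1.81e-05), Rpn11 (0.11, SE 0.0194, adjusted p = 7.49e-05), Rpt5 (0.09, SE 0.0177, adjusted p = 0.000226) and Rpn9 (0.11, SE 0.0209, adjusted p = 0.000258) followed, and Prosalpha2 (-0.12, SE 0.0247, adjusted p = 0.00048) and Rpn13 (-0.098, SE 0.033, adjusted p = 0.0198) fell. Prosbeta2 had 0.047 (adjusted p = 0.0574). Of the partner genes 10 rose and 1 fell, among them Usp14 (0.15, SE 0.0189, adjusted p = 3.2e-07), Pomp (0.17, SE 0.0259, adjusted p = 9.61e-06), PI31 (0.15, SE 0.0236, adjusted p = 1.49e-05) and REG (0.13, SE 0.0247, adjusted p = 0.000106).

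In males 11 subunits rose and 2 fell at 12 against 6 cycles, beside 24.2% of all genes higher and 22.6% lower. All 6 ATPases of the base were among those that rose. Rpt5 had 84.5, 95.8 and 103 CPM (lowest, median, highest) at 12 cycles (n = 16), against 80.4, 86.1 and 90.3 CPM at 6 cycles (n = 15), a fold change of 0.14 (SE 0.0209, adjusted p = 3.93e-06). Rpn1 (0.14, SE 0.031, adjusted p = 0.000711), Prosbeta5 (0.14, SE 0.0351, adjusted p = 0.00196), Rpn3 (0.12, SE 0.0279, adjusted p = 0.000781), Rpn5 (0.11, SE 0.0244, adjusted p = 0.000398) and Rpn12 also rose, and Prosalpha5 (-0.10, SE 0.0332, adjusted p = 0.0135) and Rpn13 (-0.085, SE 0.0321, adjusted p = 0.0316) fell. Prosbeta1 (-0.035), Prosbeta2 (0.092) and Rpn11 (0.072) did not pass. Of the rising genes, 9 were shared by the sexes, 9 of 11 in males and 9 of 17 in females: Prosbeta5, Rpn1, Rpn12, Rpn3, Rpn5, Rpt1, Rpt2, Rpt5 and Rpt6. Rpn13 fell in both. Shared calls were again not counted over all genes, so this sharing has no background beside it. Among partner genes 11 rose and 4 fell in males, led by REG (0.20, SE 0.0256, adjusted p = 3.42e-07).

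All 32 standard subunits were lower in males than in females. The background here was wide, with 58.9% of 16152 genes higher and 36.8% lower in males, and the median of all genes was 0.91, so the subunit median of -1.18 lies on the other side of it. With another scaling (RLE) the median of all genes was 1.09 and that of the subunits -1.0, and all 32 were again lower. Prosalpha4 differed most, with a mean of 90.14 CPM in males and 270.7 CPM in females (fold change -1.8, SE 0.0264, adjusted p = 4.64e-50), and Rpn13 least, with 147.4 CPM in males and 177.6 CPM in females (-0.49, SE 0.0253, adjusted p = 7.56e-25). The smallest adjusted p-values belonged to Rpn5 (-1.57), Rpt5 (-1.39), Rpn11 (-1.67), Rpt4 (-1.41), Rpt6 (-1.39) and Rpn2 (-1.24). The catalytic genes had -1.26 for Prosbeta5, -1.19 for Prosbeta2 and -0.75 for Prosbeta1. Of the partner genes 6 were higher and 14 lower in males, with Uba1 at -1.95 and REG at -2.0, and ntc, a gene that acts in sperm individualisation, at 2.28.

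Of the 6 subunits with the most negative male to female fold change, Prosalpha4, Rpn12, Prosalpha6 and Prosbeta4 have a paralogue and Rpn11 and Rpn5 do not. The median was -1.40 over the 12 subunits with a paralogue and -1.13 over the 20 without. Before scaling, the log2 ratio of mean CPM was -1.19 for the 12 alone and -0.79 when the counts of their paralogues were added, against -0.92 for the 20. These medians are descriptions without a test. The 4 X-linked subunits, Prosalpha4, Rpt3, Rpt4 and Rpt6, had a median of -1.42, against -1.15 over the 28 autosomal ones, and each of the 4 has a paralogue.

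**Figure D4:**
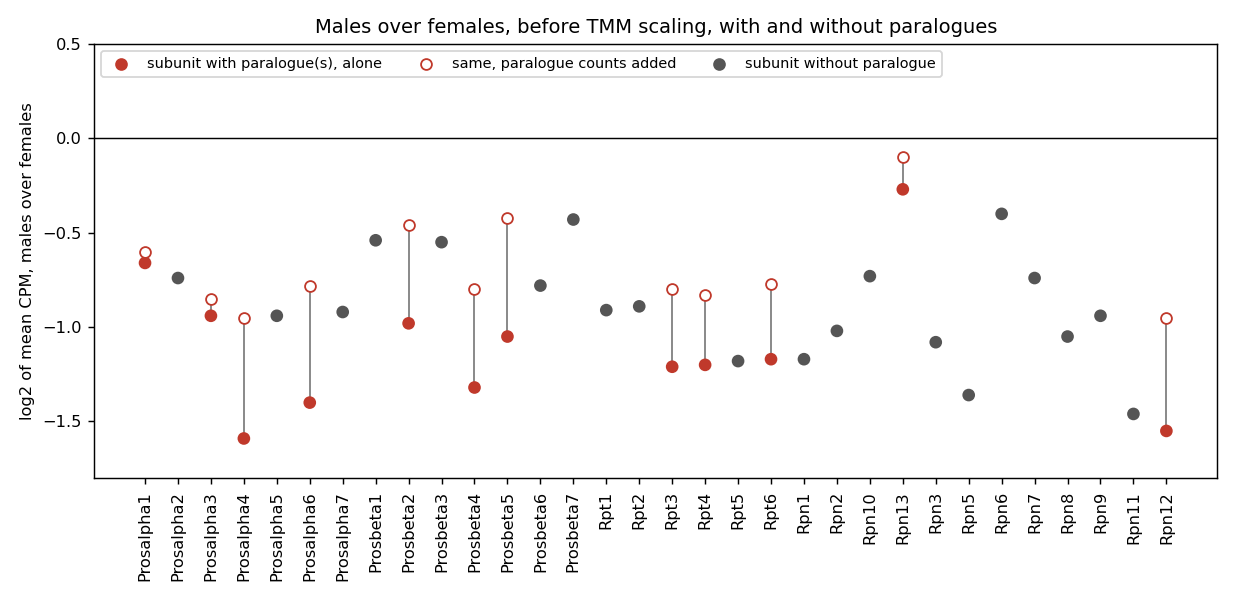
Log2 ratio of mean CPM, males over females, for each standard subunit before scaling between libraries; filled points are the subunit alone and open points the subunit with the counts of its paralogues added. All filled points lie below 0, from -0.27 for Rpn13 to -1.59 for Prosalpha4, and adding paralogues moved Prosalpha4 to -0.95 and Prosbeta5 from -1.05 to -0.42.

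On average, larvae stood above both adult sexes. Summed levels before scaling overlapped with those of females, at 6353 to 10870 CPM in larvae and 6580 to 7634 CPM in females. These tests use the fit to all libraries, which understates the larval spread. Their SEs are thus probably too small and their adjusted p-values too favourable. Against females, 31 of 32 standard subunits were higher and 0 lower, beside 48.2% of 16386 genes higher and 41.3% lower. With TMM scaling the subunit median was 0.38 and the median of all genes 0.21. With RLE scaling the median of all genes was 0.43. The subunit median under RLE is not given here, so 0.43 cannot be set beside 0.38. Rpn13 (0.87, SE 0.0286, adjusted p = 3.89e-38), Rpt3 (0.86, SE 0.0335, adjusted p = 3.51e-34), Rpn7 (0.82, SE 0.0295, adjusted p = 5.17e-36) and Rpt4 (0.75, SE 0.0265, adjusted p = 2.49e-36) led. Rpn6, a lid subunit that helps hold the regulatory and core particles together, did not pass (0.11, SE 0.0582, adjusted p = 0.0731). Its female libraries lay either at 197.1 to 233.8 CPM or at 276.9 to 325.4 CPM, often both within a group. The coefficient of variation of Rpn6 within female groups was 17.2%, against a median of 4.13% over the standard subunits. Its level in females, where it also overlaps the gene ave, is therefore uncertain. Before scaling, the log2 ratio of larval to female mean CPM was negative for Rpn6 (-0.05), Prosalpha7 (-0.06) and Prosbeta6 (-0.10), so the direction of the smallest of these differences rests on the scaling. Against males all 32 were higher and 0 lower, beside 44.7% and 46.8% of all genes. With TMM scaling the subunit median was 1.79 and the median of all genes -0.084. The median of all genes was -0.30 with RLE scaling, for which the subunit median is again not given. Rpt3 had the largest fold change, 2.44 (SE 0.0336, adjusted p = 2.31e-59), and Rpn6 the smallest, 0.87 (SE 0.0575, adjusted p = 4.78e-22). The catalytic genes and Rpn11 were higher in larvae than in males by 1.24 for Prosbeta1, 1.67 for Prosbeta5, 1.68 for Prosbeta2 and 1.98 for Rpn11.

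The 16 paralogues were expressed in males and, with the exception of Prosalpha1R, at low levels in larvae and near 0 in females. Prosalpha6T supplied 35.6 ± 4.16% of its family's level per kb in males (SD, n = 31), 1.26 ± 0.595% in larvae and 0.0184 ± 0.0168% in females. Rpn12R supplied 35.5 ± 4.07% in males, 2.33 ± 1.17% in larvae and 0.0099 ± 0.0142% in females. Rpt3R, Prosbeta5R1, Prosalpha4T2, Rpt6R and Rpt4R supplied 22.4 to 26.6% in males, and Rpn13R 16.7%, Prosbeta2R2 15.5%, Prosbeta4R1 11.4%, Prosbeta2R1 11%, Prosbeta4R2 10.9% and Prosalpha4T1 10.3%. The lowest male shares were those of Prosbeta5R2, 7.26 ± 1.42%, and Prosalpha3T, 6.62 ± 1.29%. Rpt3R had 21.6 to 42.8 CPM over the 31 male libraries and 0.779 to 2.92 CPM over the 32 female libraries. In females 10 of the 16 did not pass the filter on low counts: Prosalpha3T, Prosalpha4T1, Prosalpha6T, Prosbeta2R1, Prosbeta4R1, Prosbeta4R2, Prosbeta5R1, Prosbeta5R2, Rpn12R and Rpn13R. These genes entered comparisons between stages or sexes only through the groups in which they are high, so no count of calls and no fold is given for those comparisons.

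Prosalpha1R did not follow this pattern. It supplied 36.3 ± 7.18% of its family's level per kb in males, 29.9 ± 9.02% in larvae and 33.5 ± 7.75% in females, and it was lower in males than in females (-0.70). Its median was 40.8 CPM in males (range 7.39 to 66.7), 51.9 CPM in larvae (17.2 to 89.2) and 58.0 CPM in females (24.9 to 87.0). Within groups its coefficient of variation was 26.0% in males, 43.6% in larvae and 32.1% in females, against 11.3%, 12.8% and 11.6% for Prosalpha1. Prosalpha1R lies on 2R at 7830413 to 7831771, 1734 bases from Prosalpha1, and reads of these copies may be split between them. Their summed counts had a variation of 13.9% in males, 18.9% in larvae and 15% in females; read sharing was not tested, and the level of each copy is uncertain.

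In males the paralogues fell with cycles: 15 of 16 were lower at 12 than at 6 cycles and 0 higher, against 22.6% of all genes lower. Prosbeta5R1 had 29.3, 35.5 and 44.1 CPM (lowest, median, highest) at 12 cycles (n = 16), against 41.3, 46.0 and 51.4 CPM at 6 cycles (n = 15). The groups barely overlapped, and the fold change was -0.38 (SE 0.0396, adjusted p = 1.72e-08). Prosbeta2R2 changed most, with 17.6, 20.4 and 39.6 CPM at 12 cycles, against 22.4, 28.7 and 42.6 CPM at 6 cycles (-0.46, SE 0.0527, adjusted p = 6.77e-08). The other 13 had fold changes between -0.42 for Prosalpha3T and -0.23 for Rpt4R, and Prosalpha1R had 0.16 (SE 0.167, adjusted p = 0.45). Summed over the 15, the paralogues reached 293.0 to 412.2 CPM with a median of 330.0 at 12 cycles, against 384.0 to 470.8 CPM with a median of 425.7 at 6 cycles. Testis markers moved in the same direction, with a median sum of 3626 CPM at 12 cycles (3033 to 4344), against 4329 CPM at 6 cycles (3934 to 5223), and their part in the fall of the paralogues was not tested. The standard subunits' sum had a median of 3640 CPM at 12 cycles and 3631 CPM at 6 cycles.

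Between the regimes in males at the high point, 1 of the 16 paralogues rose and 3 fell, beside 18.2% of all genes higher and 19.7% lower. Prosbeta4R2 rose, and Prosbeta2R2, Rpt3R and Prosalpha4T2 fell. Prosbeta2R2 had 19.16, 22.23 and 28.7 CPM (lowest, median, highest) in fluctuating males, against 27.31, 32.71 and 42.25 CPM in constant males, with a fold change of -0.58 and an adjusted p of 6.3e-07. Rpt3R had 23.66, 25.71 and 33.54 CPM in fluctuating males, against 28.48, 35.75 and 42.4 CPM in constant males (-0.36). At the low point 2 rose and 3 fell, beside 12.3% and 15% of all genes: Rpt4R (0.25) and Prosalpha3T (0.22) rose, and Prosbeta2R2 fell by 0.36, Rpt3R by 0.29 and Prosalpha4T2 by 0.19 on the log2 scale. In larvae 0 of 16 passed edgeR's test or DESeq2 at either point. An unadjusted p below 0.05 was reached by 1 at each point, beside 3212 (high) and 1834 (low) of 14634 genes. All 16 had a positive fold change at the low point, with a median of 0.54, and 7 at the high point, with a median of -0.041. Low-point testis markers summed to 337.5 ± 177.2 CPM in fluctuating and 212.8 ± 39.43 CPM in constant larvae (SD, n = 4 each). Their part in the paralogue values was not tested. In females 6 of the 16 passed the filter on low counts, and Rpt6R was called higher at the low point, at levels of at most 0.595 CPM before scaling.

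**Figure D5:**
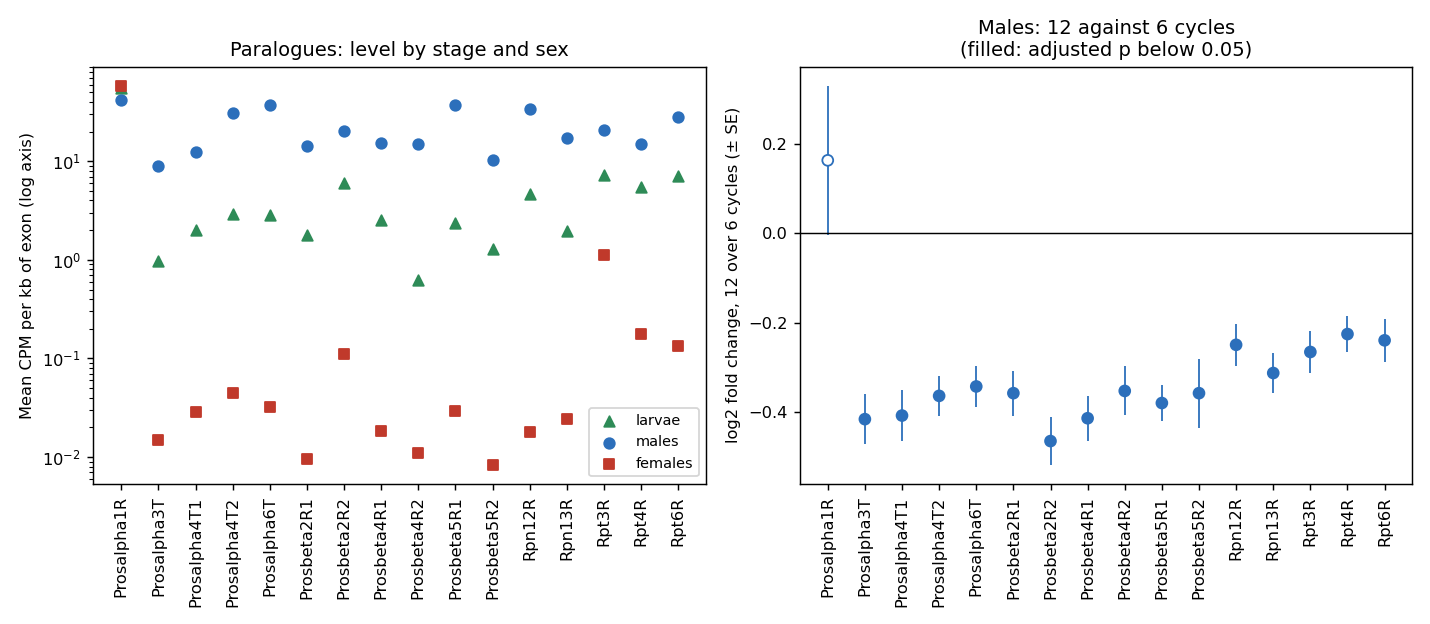
Left, mean CPM per kb of exon of the 16 paralogues in males, larvae and females, on a log axis; right, log2 fold change of 12 over 6 cycles in males with its SE, filled where the adjusted p is below 0.05. Prosalpha1R lies at like levels in all 3, the other 15 stand highest in males and lowest in females, and 15 right-hand values are filled and negative, from -0.46 to -0.23.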

How the data were processed

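The deposited matrix holds estimated counts per gene, as whole numbers; per the submitters' processing notes, the authors used FastQC, Trimmomatic, HISAT2 and StringTie with build BDGP6, and their versions are not given in the labels. Of 183786 low values, 36.8% were multiples of 4, against 25% if evenly spread, so counts are not single fragments, and p-values were also computed on counts divided by 4. Rows were matched to symbols and coordinates with the Ensembl annotation of BDGP6.54; 17559 of 17697 identifiers had a symbol. The 79 libraries were grouped by the labels. edgeR 4.0.16 in R 4.3.3 (TMM scaling, filterByExpr with a minimum count of 10, quasi-likelihood F-test, Benjamini-Hochberg) was fitted to larvae (14634 genes), females (13471), males (15945), adults (16152) and all libraries (16386). In adults, 12-cycle and 6-cycle groups were averaged. A gene was called at an adjusted p below 0.05. CPM per library in comparisons are after TMM scaling; sums and shares are before it.

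Members, lists and comparisons were chosen with earlier results of these data known, and the tests of 12 minus 6 cycles were added after values had been seen. In each comparison the genes given with their test were up to 6 called subunits per direction by adjusted p, Prosbeta1, Prosbeta2, Prosbeta5 and Rpn11, or the lowest 3 by adjusted p where none was called, and up to 4 called partners. Alternatives were RLE scaling, no filter, a robust fit, division by 4, the compared libraries alone, each cycle number alone, a replicate block, the left-out library kept, DESeq2 1.42.0, and leaving out each replicate. The fits were tested on simulated counts. The design text calls the replicates biological, and nothing says whether they came from separate cultures, so p-values measure the spread between these libraries. Protein and promoter sequences were not used here.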

Additional observations from a re-analysis of the deposited data

Results flagged for a closer look

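Some libraries stood apart from the others of their group in a summed level. Of 125 sums over groups of 4 or more libraries, 7 had a library whose gap to the nearest other exceeded Dixon's 95% critical value, and chance gives about 1 in 20. The 15 paralogues without Prosalpha1R summed to 97.85 CPM in fluctuating high-point larvae replicate 3, against 39.92 to 48.12 CPM in the others, and testis markers in that library summed to 417.7 CPM. They summed to 412.2 CPM in constant high-point 12-cycle males replicate 8, against 329.4 to 339.7 CPM. The alpha ring summed to 911.3 CPM in fluctuating high-point 6-cycle males replicate 1, against 699.7 to 729.3 CPM, and to 1435 CPM in constant low-point 12-cycle females replicate 5, against 1552 to 1576 CPM. In fluctuating high-point 12-cycle males replicate 6 the beta ring summed to 777.9 CPM, against 836.2 to 847.8 CPM, and the ATPases to 624 CPM, against 644.4 to 647.2 CPM. In fluctuating low-point 6-cycle males replicate 3 the ATPases summed to 582.7 CPM, against 610.5 to 615.2 CPM.

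Effects of fluctuation differed between groups by edgeR's test of the difference itself. In larvae minus adults it called 25 subunits at the high point, with Rpn13 at 0.56, and 1 at the low point, Rpn13 at 0.23. The fit behind these calls understates the larval spread, as said above. In males minus females it called 4 at the high point, with Rpn13 at -0.36, and 1 at the low point, Prosbeta5 at 0.19. Between the points it called 3 in males, with Rpn2 at -0.19, and 6 in females, with Rpt6 at 0.17. Between 12 and 6 cycles it called 5 in males at the low point, with Rpn13 at 0.57. In females it called 10 at the low point, with Rpn11 at -0.30, and 4 at the high point, with Rpn11 at -0.20.

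The library left out, labelled male, constant, low point, 6 cycles, replicate 2, had a summed level of the standard subunits of 4493 CPM, above all 15 constant male libraries used, whose highest was 4050 CPM.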

How the results depend on the processing

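Of 199 counts of called standard subunits recomputed under 10 alternatives, 164 stayed within 1.5 times the reported count and 35 did not; among named genes, 837 of 934 values kept direction and call, 88 lost the call and 9 changed sign. The cause of the changes was not tested. Apart from the regime comparisons at each cycle number given above, counts under the alternatives have no share of all genes beside them. The larval high-point count of 3 was 5 with RLE scaling, 6 with counts divided by 4, 7 with the replicate block, 0 with the compared libraries alone and 14 with DESeq2, and the larval difference between points was 3 with DESeq2. Same-number correlations of deviations had medians of 0.01 in larvae, 0.01 in males and -0.01 in females. In larvae they ranged from -0.42 to 0.68, and different-number ones from -0.67 to 0.59. With so wide a range, this check cannot decide whether replicate numbers pair the samples. The block changed no other count by over 1.5 times. No paired analysis was possible for 12 against 6 cycles because those groups share no replicate number; for larvae against each adult sex it was not run, since the adult means include 12-cycle libraries, whose numbers larvae lack.

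With 12 cycles alone, counts were 1 for females at the high point, 1 at the low point, 2 between points in constant females, 0 for the female difference between points, 0 for males at the low point, 10 between points in constant males and 9 for the male difference. With 6 cycles alone they were 13 for females at the high point, 1 for the female difference, 8 for males at the high point, 0 between points in constant males, 0 for the male difference, and 0 for males minus females at each point. With the left-out library kept, counts were 8 for males at the high point, 1 between points in constant males, 1 for the male difference, 4 for males at 12 against 6 cycles, 8 for the male low-point difference between cycles, 0 for males minus females at the low point and 2 for larvae minus adults at the low point. DESeq2 called 13 for males at the low point, 5 between points in constant males, 5 for the male difference, 8 for the male low-point difference between cycles and 2 for males minus females at the low point. The compared libraries alone gave 2 for males minus females and 2 for larvae minus adults at the low point, and RLE scaling gave 0 for the second of these.

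The sign changes were Prosbeta5 in females with 12 cycles alone (-0.001 at high and -0.066 at low), Rpn13 at the low point with 12 cycles alone (0.05 in females, 0.046 in males), Rpt3 there in males (0.039), and, with 6 cycles alone, Rpn13 (-0.15) and Rpn7 (-0.054) between points in constant males and Rpn2 (0.021) and Rpn7 (0.067) in the male difference between points.

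Leaving out each replicate gave 0 to 13 calls for larvae at the high point, 0 to 0 at the low point and between points, and 0 to 3 for their difference. Females ranged over 6 to 9 (high), 9 to 13 (low), 5 to 8 (between points), 4 to 8 (difference), 18 to 21 (12 against 6 cycles), and 2 to 6 and 8 to 13 for the high-point and low-point differences between cycles. Males ranged over 11 to 15, 7 to 13, 3 to 4, 2 to 6, 9 to 16, 0 to 0 and 4 to 8 in the same comparisons. Males against females stayed at 32, larvae against females ranged over 30 to 32 and larvae against males stayed at 32. Males minus females ranged over 4 to 7 (high) and 0 to 1 (low), and larvae minus adults over 14 to 28 and 0 to 1.

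The share of calls that were higher moved by over 10 points for males minus females at the low point (35.3% reported, 47.9% with RLE, 45.9% with DESeq2), larvae minus adults at the high point (62.6%, 47.7% and 48.1%), constant larvae between points (83.6%, 69% with DESeq2) and the male high-point difference between cycles (90%, 60.6% with DESeq2). The 10 paralogues under the low-count filter in females had at most 17 counts in a female library, so their differences between female groups were not tested.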
